A study of Mus musculus with 6 samples.

Results

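A set of 10 innate sensor genes was followed in skin wounds of diabetic mice: the Toll-like receptor genes Tlr1, Tlr2, Tlr4, Tlr7 and Tlr13, the adaptor gene Myd88, and the inflammasome genes Nlrp3, Casp1, Casp4 and Gsdmd. They form a list of names drawn up with earlier results of these data known, and all 10 were found among the 33184 genes of the deposited table. RNA-seq had been performed on wound tissues of db/db mice, a diabetic line that lacks a working leptin receptor, with 3 libraries from wounds injected with control siRNAs (NC) and 3 from wounds injected with siRNAs targeting SFRP2. Both groups carried the same genotype, a round 6 mm full-thickness wound and a peri-wound injection 1 day after injury (dpi1), and the tissue was frozen at dpi4. The sample titles carry day 3 instead, and the day they count from is not stated. Age and sex of the mice are not given, and nothing says whether a library came from 1 animal, so p-values measure only the spread between these libraries.

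Toll-like receptors are membrane proteins that recognise molecules of microbes and damaged cells. TLR2 pairs with TLR1 or TLR6 to bind lipoproteins, TLR4 binds lipopolysaccharide, and TLR7 and mouse TLR13 sit in endosomes and bind single-stranded RNA. Most of them signal through MyD88 to NF-kB. The inflammasome is a cytosolic complex in which NLRP3 activates caspase-1, which matures interleukin-1 beta and cleaves gasdermin D, the pore-forming protein of pyroptosis. Mouse caspase-4, long called caspase-11, binds lipopolysaccharide in the cytosol and cleaves gasdermin D as well. In a wound these genes are known mainly from macrophages and neutrophils.

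Since TLR7 and TLR13 bind RNA and both groups were injected with RNA duplexes, the injected strands are shown. The study lists 3 siRNAs against Sfrp2 and 1 control, and its methods describe them as 2'OMe-modified without giving the positions. The antisense strands are given 5′ to 3′ without the dTdT overhang, with GU dinucleotides in capitals.
siRNA-1: uucaugaccagcggaaucc
siRNA-2: uuGUcGUccucauucuugg
siRNA-3: aucuugGUGUcucuGUuga
NC: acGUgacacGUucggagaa
Among the 19 bases of these strands, U occurred 4, 9, 9 and 3 times in siRNA-1, siRNA-2, siRNA-3 and NC, and 5, 1, 2 and 6 times in the matching sense strands. GU occurred 0, 2, 3 and 2 times in the antisense strands and 1, 0, 0 and 3 times in the sense strands. Each Sfrp2 sense strand was found letter for letter in transcripts of 1 gene of GENCODE vM21, Sfrp2, and the control strand in none. The treated libraries are titled siRNA-1 to siRNA-3, the names of the oligos, but no source states which sequence a wound received. Sequence and animal cannot be told apart here.

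The siRNA target was examined before the sensor genes. Sfrp2 (ENSMUSG00000027996) had 11.6, 40.6 and 14.1 FPKM (fragment counts scaled to gene length and sequencing depth) in NC 1, 2 and 3, and 50.6, 54.6 and 55.2 FPKM in SFRP2-siRNA 1, 2 and 3. All 3 libraries labelled as SFRP2 knockdown thus had more of the target transcript than any NC library, with a log2 fold change of 1.45 (SE 0.43, two-sided exact permutation p = 0.1), so each direction below is given by the labels alone. Whether titles or columns were exchanged cannot be told from the files (the treated libraries, as labelled, are called siRNA libraries from here on). The libraries rested on 42.9 to 47.1 M reads, as worked out from the steps between low FPKM values. Keratinocyte genes were present in every library, with 3787 to 6594 summed FPKM over 8 markers in NC and 3610 to 6853 FPKM in the siRNA libraries, as were skeletal muscle and adipocyte genes.

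All 10 sensor genes had a higher mean in the siRNA libraries, by 1.23-fold for Casp1 to 2.20-fold for Tlr1 on mean FPKM, but none passed the threshold of an adjusted limma p under 0.05 and an absolute log2 fold change above 1. No gene of the 16005 tested did, so the background for this call was 0% of genes. The log2 fold changes, on log2(FPKM + 1) values, ran from 0.33 to 0.98 with a median of 0.68. The median of all genes tested was 0.13, and 71.8% of genes had a value above 0. An unadjusted limma p under 0.05 was reached by 4 sensor genes, Tlr1, Tlr4, Tlr7 and Gsdmd, all higher, where 6.72% of all genes were higher at that level. Over all genes that level was reached by 1075 higher and 458 lower genes, and by 438 higher and 747 lower genes after median-of-ratios scaling, which moved the median of all genes to 0.0046. Tlr7 and Gsdmd, 2 of the 10, had no overlap between groups, where 13.9% of all genes had no overlap with higher values in the siRNA libraries and 3.92% with lower values. In bulk tissue, fewer cells of a type and less RNA per cell cannot be told apart.

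**Figure D1:**
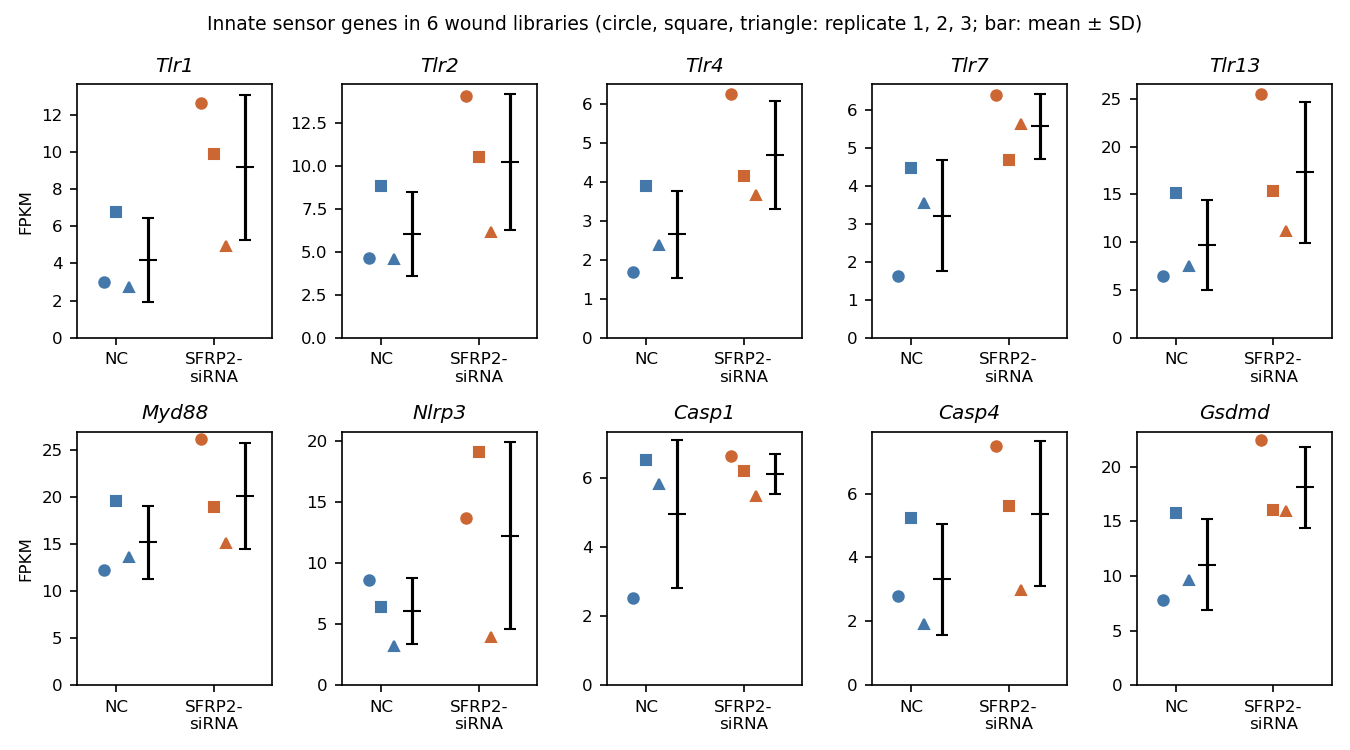
FPKM of the 10 innate sensor genes (vertical axes, each from 0) in the NC libraries (blue) and the siRNA libraries (orange); symbols give the replicate number and black bars the mean ± SD (n = 3 each). SFRP2-siRNA 1 is the highest library for 9 genes and SFRP2-siRNA 2 for Nlrp3, and NC 2 stands above NC 1 and NC 3 for every gene except Nlrp3.

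Among the cell-surface receptors, Tlr1 had the largest difference. Tlr1 (ENSMUSG00000044827, GRCm38 chromosome 5, 64924679 to 64933563, minus strand) had 3.01, 6.79 and 2.75 FPKM in NC 1, 2 and 3, and 12.7, 9.91 and 4.97 FPKM in SFRP2-siRNA 1, 2 and 3. The groups overlapped, since SFRP2-siRNA 3 lay under NC 2. The log2 fold change was 0.98 (SE 0.39), with an adjusted limma p of 0.518 and a two-sided exact permutation p of 0.2. With 3 against 3 libraries that test cannot go below 0.1. Tlr1 and Tlr6 are close paralogs, and reads that fit both are assigned in a way not stated in the sources used here.

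Tlr2 (ENSMUSG00000027995, chromosome 3, 83836272 to 83841767, minus strand), the shared partner of Tlr1 and Tlr6, had 4.63, 8.83 and 4.58 FPKM in NC and 14.0, 10.5 and 6.15 FPKM in the siRNA libraries. The order of the 6 libraries was the same as for Tlr1, and the groups overlapped through the same pair of libraries. Its log2 fold change was 0.67 (SE 0.34). Tlr4 (ENSMUSG00000039005, chromosome 4, 66827584 to 66930284, plus strand) was the lowest of the 10 genes by its mean in both groups. It had 1.70, 3.89 and 2.37 FPKM in NC and 6.26, 4.14 and 3.66 FPKM in the other group, where only SFRP2-siRNA 3 lay under NC 2. Tlr4 had a log2 fold change of 0.66 (SE 0.26).

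The endosomal RNA sensors differed in whether the groups overlapped. Tlr7 (ENSMUSG00000044583, X chromosome, 167304929 to 167330558, minus strand) had 1.62, 4.49 and 3.56 FPKM in NC and 6.40, 4.69 and 5.64 FPKM in the siRNA libraries. The groups did not overlap, although SFRP2-siRNA 2 exceeded NC 2 only narrowly, and the exact permutation p was 0.1. Tlr7 had a log2 fold change of 0.70 (SE 0.28). It was the only sensor gene for which SFRP2-siRNA 3 ranked among the 2 highest libraries. Tlr13 (ENSMUSG00000033777, X chromosome, 106143204 to 106160493, plus strand), a mouse receptor for ribosomal RNA of bacteria, was the most abundant of the 5 receptors, with 6.41, 15.1 and 7.56 FPKM in NC and 25.5, 15.3 and 11.1 FPKM in the other group. NC 2 and SFRP2-siRNA 2 were nearly level, and the groups overlapped through SFRP2-siRNA 3. The log2 fold change was 0.79 (SE 0.38).

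Myd88 (ENSMUSG00000032508, chromosome 9, 119335934 to 119341411, minus strand), the common adaptor, had the highest mean of the 10 genes in both groups and a small difference. Its values were 12.3, 19.6 and 13.6 FPKM in NC and 26.2, 18.9 and 15.2 FPKM in the siRNA libraries. NC 2 stood above both SFRP2-siRNA 2 and SFRP2-siRNA 3. The log2 fold change was 0.38 (SE 0.25), with an adjusted limma p of 0.567. Myd88 overlaps Acaa1a on the opposite strand and Slc22a14 on its own strand in the annotation, and whether strand was used in counting is not stated in the sources used here.

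The inflammasome genes held the members with the widest spread and the smallest difference. Nlrp3 (ENSMUSG00000032691, chromosome 11, 59541568 to 59566956, plus strand) had 8.66, 6.38 and 3.21 FPKM in NC and 13.7, 19.1 and 3.97 FPKM in the siRNA libraries. SFRP2-siRNA 3 was thus below 2 of the 3 NC libraries. The log2 fold change was 0.76 with an SE of 0.55, the largest SE of the 10, and the exact permutation p was 0.3. It was 0.35 without SFRP2-siRNA 2 and 1.36 without SFRP2-siRNA 3. Il1b, the gene of the cytokine that caspase-1 matures, had the same order of libraries, with 111, 82.9 and 46.9 FPKM in NC and 223, 253 and 56.5 FPKM in the other group.

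Casp1 (ENSMUSG00000025888, chromosome 9, 5298517 to 5307265, plus strand) had 2.52, 6.53 and 5.84 FPKM in NC and 6.64, 6.22 and 5.48 FPKM in the siRNA libraries. Only NC 1 lay apart from the other 5 libraries. The log2 fold change was 0.33 (SE 0.29, exact permutation p = 0.6), and without NC 1 it was -0.016. The level of Casp1 depends on its gene model. The deposited values gave whole reads at a length of 3136 bases, while GENCODE vM21 has 1497 bases, at which the means would be 10.4 FPKM in NC and 12.8 FPKM in the other group.

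Casp4 (ENSMUSG00000033538), its neighbour on chromosome 9 (5308828 to 5336783, plus strand), had 2.79, 5.24 and 1.90 FPKM in NC and 7.5, 5.61 and 2.97 FPKM in the siRNA libraries. SFRP2-siRNA 3 lay within the NC range. Casp4 had a log2 fold change of 0.57 (SE 0.37). Gsdmd (ENSMUSG00000022575, chromosome 15, 75862327 to 75867408, plus strand), the target of both caspases, had 7.76, 15.8 and 9.62 FPKM in NC and 22.5, 16.0 and 15.9 FPKM in the other group. The groups did not overlap, but NC 2 was almost level with SFRP2-siRNA 3. Gsdmd had the smallest unadjusted limma p of the 10, 0.035, with a log2 fold change of 0.70 (SE 0.27) and an adjusted p of 0.518.

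By mean FPKM, which is scaled to gene length, the first 5 genes had the same order in both groups: Myd88, Gsdmd, Tlr13, Nlrp3 and Tlr2. Neighbours in this order were not separated, since the ranges of every adjacent pair overlapped in each group. Myd88 was above Gsdmd in 3 of 3 NC libraries and in 2 of 3 of the other group. The place of Casp1, rank 6 in NC and 7 in the other group, depends on the gene length used.

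The 10 genes largely shared the order of the libraries. SFRP2-siRNA 1 was among the 2 highest libraries for all 10 genes, and NC 1 and NC 3 were each among the 2 lowest for 9. NC 1 was the lowest library for 6 genes and NC 3 for the other 4. Nlrp3 and Casp1 departed from this order: NC 1 had rank 3 for Nlrp3, and NC 3 had rank 4 for Casp1, above SFRP2-siRNA 3.

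**Figure D2:**
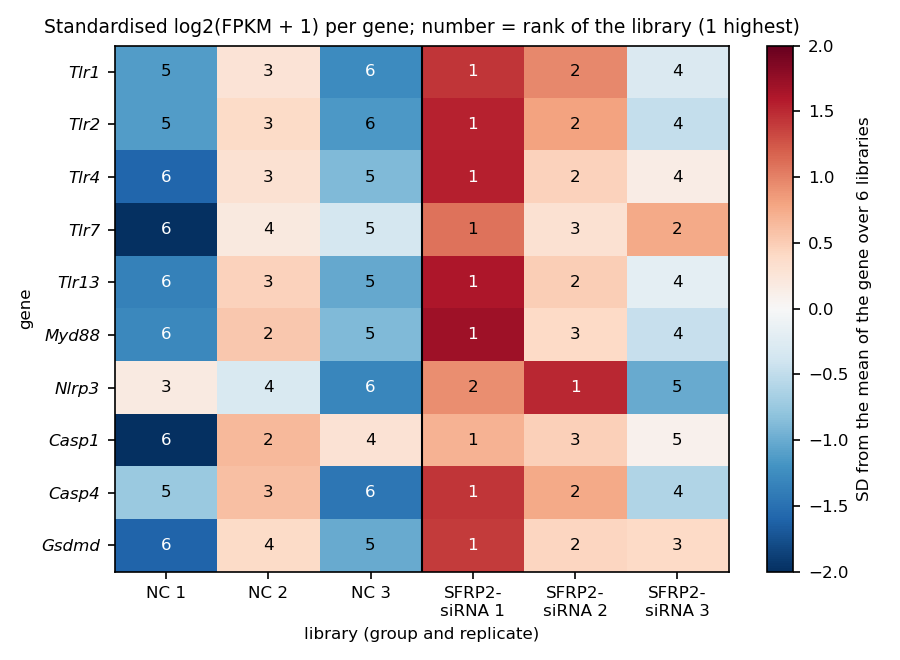
Standardised log2(FPKM + 1) of each gene (rows) in each library (columns), as SD from that gene's mean over 6 libraries; the numbers give the rank of the library, 1 being the highest. SFRP2-siRNA 1 ranks first for 9 genes, NC 1 has rank 3 only for Nlrp3, and NC 3 has rank 4 only for Casp1.

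Most myeloid and pan-leukocyte markers had higher means as well. All 12 macrophage genes had higher means in the siRNA libraries, with a median log2 fold change of 0.74 (0.59 after median-of-ratios scaling), and their summed level was 990 to 1721 FPKM in NC and 1937 to 2489 FPKM in the other group. Of the 8 pan-leukocyte genes, all were higher on average (median 0.81), and their sums of 264 to 458 and 418 to 792 FPKM overlapped. Of the 11 neutrophil genes 8 were higher on average and 3, Camp, Ltf and Ngp, lower. The sum of the 11 was 1166 to 1822 FPKM in NC and 4660, 5581 and 1015 FPKM in SFRP2-siRNA 1, 2 and 3. Most of that sum in each library was S100a9, with means of 1218 FPKM in NC and 2998 FPKM in the siRNA libraries. Of the 5 dendritic and Langerhans genes tested 3, Cd207, Itgax and Clec9a, had higher and 2, Epcam and Zbtb46, lower means (median 0.068). The list summed to 26.1 to 55.1 FPKM in NC and 21.4 to 40.0 FPKM in the siRNA libraries. Most of that sum in each library was Epcam, with means of 38.5 FPKM in NC and 23.9 FPKM in the siRNA libraries. Cd207 had means of 1.10 and 2.15 FPKM. Of the 3 T and B cell genes tested 2 had higher and 1 a lower mean, with sums of 2.93 to 4.51 and 3.09 to 5.51 FPKM. None of the markers listed was at 0 in any library, and none passed the threshold. Mast cell genes and fibroblast genes had higher sums as well, with ranges of 94.9 to 107 against 139 to 197 FPKM and of 853 to 1911 against 2100 to 2189 FPKM. All 6 skeletal muscle genes had higher means (median 0.64), with sums of 3034 to 5932 FPKM in NC and 3910, 5999 and 11324 FPKM in SFRP2-siRNA 1, 2 and 3, and all 6 adipocyte genes had lower means (median -0.44), with sums of 1529 to 1999 FPKM in NC and 2103, 1160 and 782 FPKM in the same order. Transcripts with mt- symbols made up 35.8%, 22.2% and 17.4% of all FPKM for NC 1, 2 and 3 and 11.8% to 16.6% for the other group. NC 1, with the highest mt- share, was also the lowest library for 6 of the 10 sensor genes, and without it their median log2 fold change was 0.51. The part of these differences in the values of the sensor genes was not tested beyond the ratios that follow.

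To set the sensor genes beside macrophage transcripts of the same library, each was divided by the summed FPKM of the 12 macrophage genes. Lyz2 was the largest part of that sum, with a mean of 585 of 1288 FPKM in NC and 1047 of 2130 FPKM in the siRNA libraries. The differences between groups then centred near 0, with a median of 0.049 on the log2 scale, 7 genes higher and 3 lower. For Gsdmd the log2 ratio was -6.89 ± 0.11 in NC and -6.89 ± 0.08 in the siRNA libraries (SD, n = 3 each), a difference of 0.0039. Tlr2 differed by 0.00048 and Tlr13 by 0.10. Tlr1 had the largest positive difference, 0.40, with an exact permutation p of 0.3, but it ran from 0.22 without NC 3 to 0.73 without SFRP2-siRNA 3. Nlrp3 was above it without NC 1, at 0.58, and Tlr7 without NC 3, at 0.34. Myd88 was lower relative to macrophage genes, with -6.40 ± 0.06 and -6.75 ± 0.22 (SD, n = 3 each), and was the only gene whose ratios did not overlap against this sum. Against the mean log2 level of the same genes 2 of the 10 did not overlap, Myd88 and Gsdmd, both lower, with differences of -0.37 and -0.042. Each had an exact permutation p of 0.1. Against the pan-leukocyte genes 0 of 10 were without overlap, with a median difference of 0.059 and an exact permutation p of 0.2 for Myd88. The share of all genes with ratios that do not overlap was not worked out, so these counts have no background. Against the summed macrophage genes the exact permutation p of Myd88 was 0.1, the smallest possible. Adjusted over the 10 genes, every p against that sum was 1. Against the summed neutrophil genes, mostly S100a9, 9 of the 10 were lower, with a median of -0.14 and a smallest exact permutation p of 0.6.

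**Figure D3:**
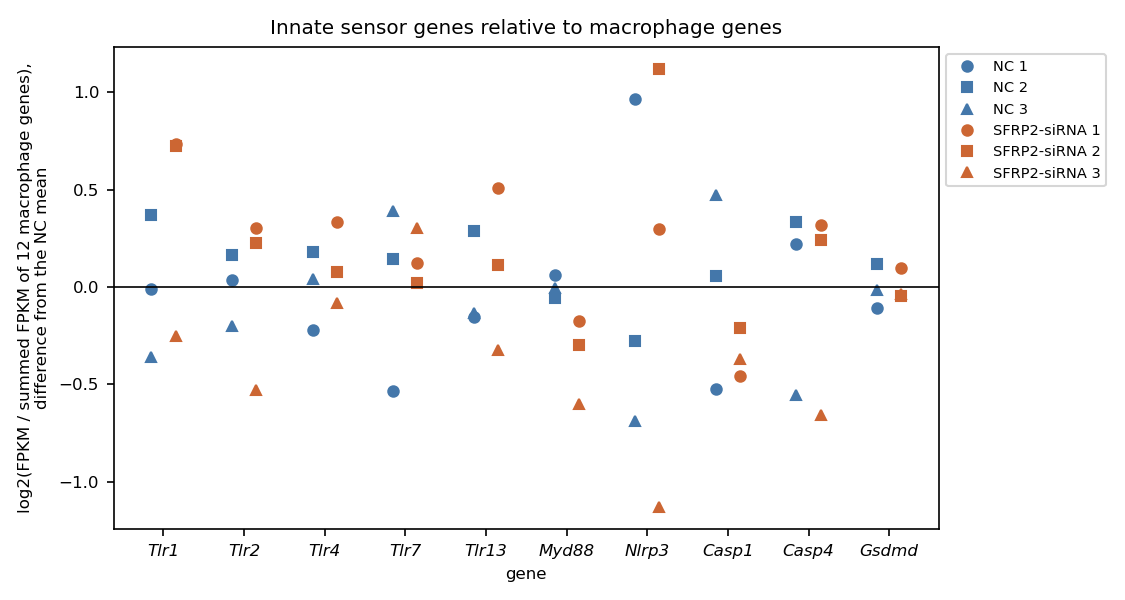
Log2 ratio of each sensor gene to the summed FPKM of 12 macrophage genes in the same library, drawn as the difference from the NC mean; blue symbols are NC and orange symbols SFRP2-siRNA, with shapes for the replicate number. Gsdmd lies within a narrow band in all 6 libraries, Myd88 is lower in the 3 siRNA libraries, and Nlrp3 spreads most.

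The sensor genes differed in which marker list their pattern over the 6 libraries lay nearest to. This was measured as the root mean square difference between standardised profiles, a description chosen after the values had been seen. Gsdmd lay at 0.074 from the macrophage list and 1.14 from the neutrophil list, and Tlr4 at 0.17 and 1.07. Both also lay near the fibroblast list, at 0.24 and 0.33, and the pan-leukocyte list, at 0.42 and 0.37. Nlrp3 was nearer to neutrophil than to macrophage genes, at 1.05 from the macrophage list and 0.36 from the neutrophil list, and it lay at 0.35 from the 3 T and B cell genes tested. Tlr1, Tlr2, Tlr13, Myd88 and Casp4 lay nearest to the pan-leukocyte list, at 0.12 to 0.36, and Tlr7 and Casp1 nearest to the fibroblast list, at 0.38 and 0.64. Among 11796 other genes with at least 2 FPKM on average, the nearest to the mean profile of the 10 were Cd300lb (0.049), a myeloid surface receptor gene, Cyp26b1, Ckap4, Ptprc, Akr1c13, Picalm, Sec24d, Naip2, Sh3bp2 and Arhgap30 (0.10), where the median gene lay at 1.21. Cyp26b1 and Ckap4, which are in none of the marker lists, had ranks 2 and 3, at 0.054 and 0.063. Ptprc, the gene of the leukocyte antigen CD45, had rank 4 at 0.070, with 1.94, 4.98 and 2.39 FPKM in NC and 8.0, 6.26 and 3.68 FPKM in the other group. Naip2, an inflammasome receptor gene, had rank 8.

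The other genes of these pathways were taken from 7 lists of 85 genes, of which 79 could be tested. None passed the threshold. At an unadjusted limma p under 0.05 there were 8 higher genes and 1 lower, against 6.72% and 2.86% of all genes, and their median log2 fold change was 0.37. The groups did not overlap for 11 higher genes and 1 lower gene of the 79, where 13.9% and 3.92% of all genes did so, and for 4 higher genes after median-of-ratios scaling, where 5.54% did. On the deposited scale 72 of the 79 had a higher mean and 7 a lower one, and after median-of-ratios scaling 60 and 19. Among other Toll-like receptors Tlr6, the second partner of Tlr2, had 2.51 ± 0.63 FPKM in NC and 4.74 ± 1.90 FPKM in the siRNA libraries (SD, n = 3 each), Tlr8 had 3.05 ± 1.70 and 5.04 ± 0.92 FPKM, and Tlr9 had 1.85 ± 1.5 and 2.60 ± 0.66 FPKM. Tlr5, the flagellin receptor, had a log2 fold change of -0.067, the only value below 0 among the 5 receptors tested, though after median-of-ratios scaling Tlr3 was below 0 too. Tlr11 and Tlr12 were too low to be tested.

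Co-receptors and chaperones of the receptors had 8 of 8 genes higher on average. Unc93b1, which carries the endosomal receptors to their compartment, had 41.7 ± 15.5 and 64.7 ± 6.96 FPKM, Ly86 had 4.87 ± 2.21 and 7.60 ± 0.87 FPKM, and Cnpy3, a folding chaperone of the receptors, had 12.1 ± 1.01 and 15.1 ± 2.34 FPKM in NC and in the siRNA libraries (SD, n = 3 each). Of the 8, Cnpy3 alone had groups that did not overlap, and 0 were higher with no overlap after median-of-ratios scaling. The 20 signalling genes downstream differed little, with a median log2 fold change of 0.16 beside 0.13 for all genes; 19 were higher on average, and 13 after median-of-ratios scaling. Irf5, the kinase gene Ikbkb and Irak3, an inhibitor of the pathway, came first by limma p, with log2 fold changes of 0.52, 0.28 and 0.54. Among the 11 NF-kB subunits and targets, Nfkb1, Ptgs2 and Nfkbiz had log2 fold changes of 0.37, 0.89 and 0.62, and none had an unadjusted limma p under 0.05.

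For the remaining inflammasome genes the differences were uneven. Panx1, a membrane channel gene, had 3.26 ± 0.62 FPKM in NC and 4.85 ± 0.42 FPKM in the siRNA libraries (SD, n = 3 each), the smallest unadjusted limma p of all pathway genes, 0.0164. Naip6 and Naip5, receptors of a near-identical family that can share reads, had log2 fold changes of 0.67 and 0.57, and the NC 3 value of Naip6 rested on 2 reads. Pycard, the adaptor between NLRP3 and caspase-1, had a log2 fold change of 0.10, which turned below 0 after median-of-ratios scaling. Among products and death effectors, Ninj1, whose protein ruptures the membrane of dying cells, had 48.8 ± 7.28 and 70.7 ± 11.9 FPKM, and the necroptosis kinase gene Ripk3 had 7.63 ± 2.0 and 12.1 ± 2.83 FPKM in NC and the other group (SD, n = 3 each). Neither Ninj1 nor Ripk3 overlapped between groups as deposited, where 13.9% of all genes were higher with no overlap. Of the 9 genes of their list 3 were so, 1 after median-of-ratios scaling and 0 after quantile normalization. Casp8 had a log2 fold change of 0.44. Il18 and Gsdma, both expressed in epidermis, had log2 fold changes of -0.24 and -0.60. Among other innate sensors Card9 had a log2 fold change of 0.81, Sting1 had 0.64, and Mavs, the adaptor of the cytosolic RNA sensors, was lower with no overlap, at 17.8 ± 2.21 and 14.0 ± 0.48 FPKM (SD, n = 3 each).

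**Figure D4:**
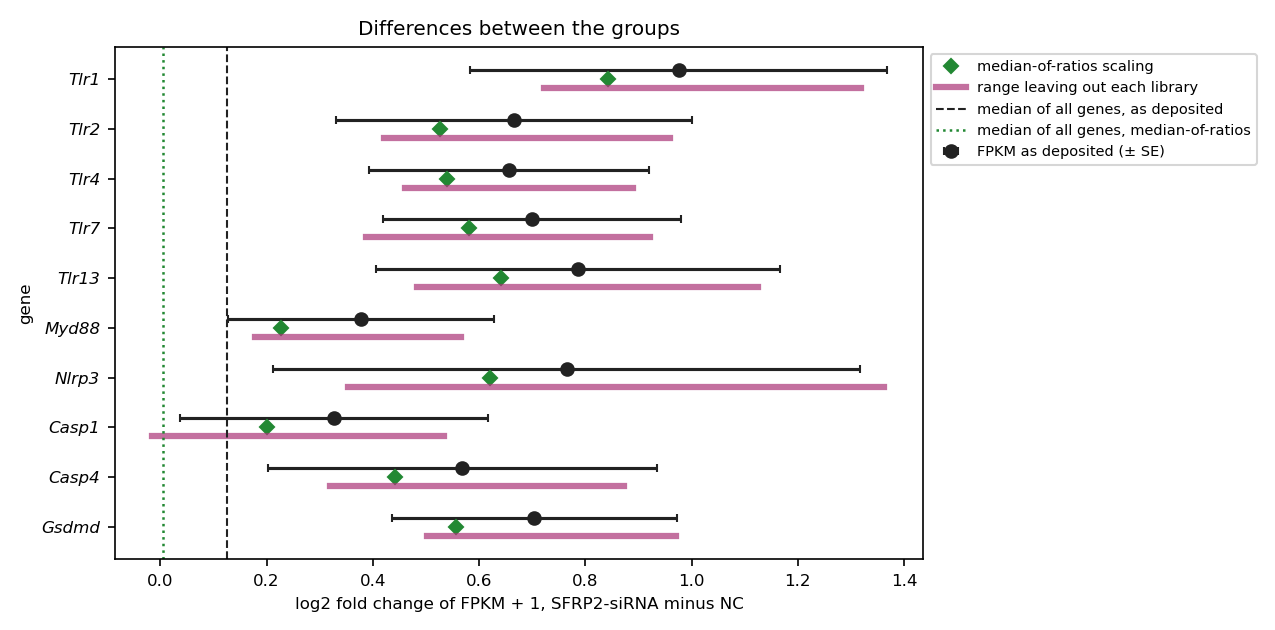
Log2 fold change of FPKM + 1 (horizontal axis, SFRP2-siRNA minus NC) for the 10 sensor genes: black points are the deposited values ± SE, green diamonds the values after median-of-ratios scaling, and purple bars the range when each library was left out in turn; vertical lines mark the median of all genes under each scaling. All 10 genes lie above the median of all genes under both scalings, and only the bar of Casp1 reaches below 0.

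With median-of-ratios scaling all 10 sensor genes remained higher on average, and their median lay 0.54 above that of all genes (0.56 on the deposited scale), but 0 of 10 had groups that did not overlap and 0 had an unadjusted limma p under 0.05, where 5.54% and 2.74% of all genes were higher by these measures. Without NC 2, 8 of 10 had groups that did not overlap and 7 had an unadjusted limma p under 0.05, against 25.8% and 9.78% of all genes; without SFRP2-siRNA 3 the counts were also 8 and 7, against 22% and 6.87%. An unadjusted limma p under 0.05 was reached by 0 of 10 without NC 1, NC 3 or SFRP2-siRNA 1, where 2.87%, 5.74% and 5.56% of all genes were higher at that level, and by 1 of 10 without SFRP2-siRNA 2, where 3.75% were.

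The promoters of 4 members, picked mainly by their values here, are shown. They are Tlr1 with the largest difference, Tlr2 its partner, Tlr13 the most abundant receptor, and Nlrp3, whose pattern departed. A link between these sequences and the shared order of the libraries was not tested. RefSeq (GRCm38.p6) gave promoters, from 250 bases before to 50 bases after a start, for 7 of the 10 genes, 10 windows in all. The 5′-most start is used, and each sequence reads 5′ to 3′ on the strand of the gene. Capitals mark matches on either strand to GAGGAA, a core of the myeloid factor PU.1, or to the NF-kB consensus.
Tlr1 chr5:64933509-64933808, minus strand: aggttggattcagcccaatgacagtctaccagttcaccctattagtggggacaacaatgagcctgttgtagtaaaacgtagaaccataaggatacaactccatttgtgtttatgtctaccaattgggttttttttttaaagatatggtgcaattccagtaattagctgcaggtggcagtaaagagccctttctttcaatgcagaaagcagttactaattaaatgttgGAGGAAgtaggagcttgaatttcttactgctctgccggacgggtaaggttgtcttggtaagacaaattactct
Tlr2 chr3:83841559-83841858, minus strand: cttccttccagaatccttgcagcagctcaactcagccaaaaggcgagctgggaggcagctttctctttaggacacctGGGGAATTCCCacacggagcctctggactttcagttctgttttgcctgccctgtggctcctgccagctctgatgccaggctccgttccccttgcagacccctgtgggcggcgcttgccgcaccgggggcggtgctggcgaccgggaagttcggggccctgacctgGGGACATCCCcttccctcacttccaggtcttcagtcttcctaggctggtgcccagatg
Tlr13 chrX:106143025-106143324, plus strand: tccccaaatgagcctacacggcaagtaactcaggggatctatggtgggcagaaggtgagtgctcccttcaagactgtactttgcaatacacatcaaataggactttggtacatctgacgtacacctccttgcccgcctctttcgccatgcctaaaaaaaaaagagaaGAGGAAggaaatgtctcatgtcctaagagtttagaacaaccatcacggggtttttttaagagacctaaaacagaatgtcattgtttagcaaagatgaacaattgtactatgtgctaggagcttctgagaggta
Nlrp3 chr11:59541319-59541618, plus strand: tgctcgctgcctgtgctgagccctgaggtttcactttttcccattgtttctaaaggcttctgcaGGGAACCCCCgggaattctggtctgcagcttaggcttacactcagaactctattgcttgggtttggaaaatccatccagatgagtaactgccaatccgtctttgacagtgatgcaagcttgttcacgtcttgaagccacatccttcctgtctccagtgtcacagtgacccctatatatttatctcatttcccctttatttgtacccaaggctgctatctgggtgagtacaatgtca
Tlr1 and Tlr13 each held 1 GAGGAA match, Tlr2 held 2 stretches matching the NF-kB consensus and Nlrp3 held 1. Matches to different motifs did not overlap in these windows. The second start of Nlrp3 held 3 GAGGAA matches. GAGGAA was found in 4 of the 10 windows of these genes and in 28.3% of all 32851 promoters of the same length, and the NF-kB consensus in 4 of 10 and in 8.46%, where the pair of Casp4 windows counted among the 4 overlap each other almost fully. The interferon response repeat, GAAA followed after 2 bases by GAAA and searched on both strands, was in 1 of 10 windows, that of Myd88, and in 3.44% of all promoters. These matches describe letters and not binding.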

How the data were processed

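RNA-seq was measured in 3 NC and 3 SFRP2-siRNA wound libraries, grouped and numbered by their titles. The authors deposited FPKM values per Ensembl gene; the submitters' processing notes name HISAT2, Subread and featureCounts, while versions, genome build and annotation are not given in the sources used here. Gene lengths of GENCODE vM21 (GRCm38) gave whole reads, within 0.01 reads or 2 ppm, in all 6 libraries for 98.3% of the 32582 genes with such a length. Coordinates are from that annotation, and symbols came from a table that matched the same genes. Read totals followed from the value of 1 read. The sensor genes rested on 291 to 4708 reads per library.

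Values were tested as log2(FPKM + 1), which understates changes of low genes, for the 16005 genes averaging 0.5 FPKM or more, by limma 3.58.1 (R 4.3.3, eBayes with trend, two-sided, Benjamini-Hochberg over all genes). The thresholds of the study's methods (adjusted p under 0.05, log2 fold change past 1 in size) were kept, but its count model was not, since the values are FPKM. Single values were compared by an exact permutation test (scipy 1.17.1). The fit was also run on simulated data with genes drawn independently, which says nothing about genes that vary together as here. Members and lists were chosen with earlier results of these data known. Named were the members, Sfrp2, the 3 genes with the smallest p in each pathway list and the 10 genes nearest to the members' profile. Il1b, Pycard, Tlr3, Tlr5, Il18 and Gsdma were named after their values were seen. The same holds for the single markers Lyz2, S100a9, Camp, Ltf, Ngp, Cd207, Itgax, Clec9a, Epcam and Zbtb46. Same-group libraries were not duplicates, with chi-squares per gene of 90.8 to 266. Alternatives covered pseudocount, filter, scaling, trend, replicate block, sample weights and leaving out each library. Voom on recovered reads and Ptprc as a reference were added after seeing the data.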

Additional observations from a re-analysis of the deposited data

How the results depend on the processing

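No gene passed the threshold under any of the 18 alternative fits, among which the smallest adjusted p of any gene was 0.119 (limma with estimated sample weights). Of the log2 fold changes of the sensor genes and Sfrp2 under these fits, 197 kept their direction and side of the threshold and 1 reversed, Casp1 at -0.016 without NC replicate 1; leaving out each library gave Casp1 -0.016 to 0.53, the highest without NC 2. By the same measure Myd88 ran from 0.18 (without SFRP2-siRNA 1) to 0.57 (without NC 2), Nlrp3 from 0.35 to 1.36, Casp4 from 0.32 (without NC 3) to 0.87 (without SFRP2-siRNA 3), Tlr2 from 0.42 (without SFRP2-siRNA 1) to 0.96 (without SFRP2-siRNA 3), Tlr13 from 0.48 (without SFRP2-siRNA 1) to 1.13 (without NC 2), Tlr7 from 0.39 (without NC 1) to 0.92 (without NC 2), Tlr4 from 0.46 to 0.89, Gsdmd from 0.50 to 0.97 and Tlr1 from 0.72 to 1.32. The count of sensor genes with an unadjusted limma p under 0.05, 4 as deposited, was 1 with no filter on low values (4.6% of all genes were higher at that level), 2 with estimated sample weights (8.85%) and 0 with rescaling without the most abundant genes, median-of-ratios scaling, quantile normalization or voom with median-of-ratios library sizes (2.68%, 2.74%, 2.96% and 2.71%). Those last 4 settings also gave 0 sensor genes with groups that did not overlap, against 4.92%, 5.54%, 6.12% and 5.51% of all genes higher by this measure. Rescaling to equal sums gave 1, against 14.6%. The same 4 settings gave 2 other pathway genes with an unadjusted limma p under 0.05 in either direction, where the deposited values gave 9. Of all genes, 6.72%, 7.4%, 7.27% and 7.43% reached that level in either direction under the 4 settings, and 9.58% as deposited. Leaving out each library gave 0 to 7 sensor genes, 1 to 26 other pathway genes and 887 to 1970 genes in all at an unadjusted limma p under 0.05. It gave 2 to 8 sensor genes with groups that did not overlap. The count was 2 without NC 1, NC 3, SFRP2-siRNA 1 or SFRP2-siRNA 2, where 15.7%, 29%, 23.7% and 21.2% of all genes were higher with no overlap. The cause was not tested.

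Deviations of same-numbered libraries from their group means correlated at -0.047, -0.15 and 0.38 for replicates 1, 2 and 3. Differently numbered libraries were not compared, so these values cannot decide whether the numbers pair libraries. A replicate block gave 2 sensor genes, Tlr1 and Nlrp3, both higher, with an unadjusted limma p under 0.05, where 7.84% of all genes were higher at that level. It gave 16 of the 79 other pathway genes, counted in either direction, where 12.1% of all genes reached that level in either direction. Tlr4, Tlr7 and Gsdmd, under 0.05 without the block, had 0.0773, 0.0744 and 0.0664 with it.

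Ratios to other references depended on the reference. Against the neutrophil genes the difference was -0.19 for Tlr2, -0.083 for Tlr4, -0.045 for Tlr7, -0.094 for Tlr13, -0.099 for Nlrp3 and -0.19 for Gsdmd. Against the mean log2 level of the macrophage genes it was -0.080 for Tlr2, -0.089 for Tlr4, -0.047 for Tlr7 and -0.042 for Gsdmd. Against Ptprc it was -0.24 for Tlr2, -0.13 for Tlr4, -0.093 for Tlr7, -0.14 for Tlr13, -0.15 for Nlrp3 and -0.24 for Gsdmd. Leaving out each library moved the macrophage ratio from -0.15 to 0.26 for Tlr2, 0.22 to 0.73 for Tlr1, -0.00062 to 0.21 for Tlr4, -0.12 to 0.34 for Tlr7, -0.10 to 0.31 for Tlr13, -0.42 to 0.71 for Nlrp3, -0.31 to 0.28 for Casp4 and -0.049 to 0.064 for Gsdmd, and the median of the 10 from -0.073 to 0.24, the highest without SFRP2-siRNA 3.

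With every recovered read taken as independent, the counting error was at most 5.86% of a sensor gene's level in a library. The SD between libraries of a group was 9.59% to 62.6% of the mean. Among recovered gene counts of 1 to 20 reads, 64.6% were even. Whether both reads of a pair were counted was not tested, so 5.86% is no upper limit for paired reads. The counting error covers counting only.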
